A study of Mus musculus with 6 samples.

Results

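The potassium channel genes described here are the 93 rows of the deposited table whose symbol starts with Kcn, goes on with lower-case letters and ends in a number, out of 22162 genes in all. They stand for 92 symbols, because Kcnh8 has 2 rows. By their symbols, 78 rows encode pore-forming subunits and 15 encode auxiliary subunits. The samples are mouse skin fibroblasts (MSFs) from the dorsal skin of FASST mice on an FVB/N background, cultured at 3% oxygen. These mice carry a Cre-ERT2 recombinase driven by a pro-alpha 2(I) collagen promoter and a p27Kip1 cassette behind a lox-stop-lox block at ROSA26, so both groups share both alleles and differ in the agent added. Poly(A) RNA was sequenced from 3 samples labelled senescent, given 10 µM tamoxifen (TAM) for 48 h, and 3 labelled non-senescent, given the ethanol vehicle (EtOH). They are called the TAM and EtOH libraries below. The 48 h are the exposure time in the study's methods, and the paper does not give the time of RNA collection. The study describes the MSFs as a line taken from a female mouse. Nothing in the labels says whether the libraries came from separate animals or cultures. The p-values set the group difference against the spread left within the groups of these 6 samples, and may not speak for variation between animals. As no TAM-treated cells without the p27Kip1 cassette are among the samples, an effect of TAM and one of p27Kip1 cannot be told apart.

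Potassium channels are membrane pores that let potassium leave or enter a cell and so set its resting voltage. Voltage-gated channels open on depolarization, inward rectifiers hold the membrane near the potassium equilibrium, two-pore-domain channels carry background leak, and a further group opens on internal calcium or sodium. In fibroblasts they are known for effects on membrane potential, calcium entry, volume and proliferation. Auxiliary subunits form no pore, and they alter the gating, trafficking or calcium sensitivity of the subunits they bind.

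The pore lining is the sequence feature that sets the pore-forming subunits apart from the auxiliary ones. It is shown here for pore-forming members on which the comparison turns and for the channel partner of Kcnmb1. The capitals mark 9 bases that read GGNTANGGN or GGNTTNGGN in frame, which is where the glycine codons of the selectivity filter lie, in coding sequence of the mm9 annotation.
Kcnj2: acccagacaaccattGGCTATGGTttcagg
Kcna4: accatgacaactgtgGGCTATGGGgacatg
Kcnn1: accttcttgtccattGGCTATGGAgacatg
Kcnma1: acaatgtctacagtgGGTTATGGGgacgtt
Kcnk12, first loop: gtggtgtcgaccataGGTTTCGGCatgaca
Kcnk12, second loop: accttcagcaccatcGGCTTCGGGgacctg
In mm9 these bases lie at chr11:110933512-110933541 (Kcnj2, plus strand), chr2:107136643-107136672 (Kcna4, plus), chr8:73374550-73374579 (Kcnn1, minus), chr14:24347629-24347658 (Kcnma1, minus) and chr17:88145787-88145816 (Kcnk12, second loop, minus). The bases of the first loop of Kcnk12 are split by an intron. Counted in the longest coding sequence of each gene, GGNTANGGN stood in frame in 62 of the 78 pore-forming rows and GGNTTNGGN in 27, with 12 holding both. None of the 15 auxiliary rows held either, while 5.8% and 11.9% of all 22359 protein-coding genes held them. Not every match lies in the pore, since Kcnj2 also holds a GGNTTNGGN at codon 29, far from the loop at codon 144. A subunit with 2 loops, such as Kcnk12, is what the two-pore-domain class is named for.

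A gene was called expressed when it had at least 16 normalized counts in at least 3 of the 6 libraries. The members were chosen by symbol, with the high TAM values of Kcnj2 known and its name given to the set, and then selected on this level. Of the 93 rows, 19 were expressed (20.4%), against 53.6% of the whole table. They comprised 12 of the 78 pore-forming rows and 7 of the 15 auxiliary rows. A further 7 rows reached 16 in 1 or 2 libraries, 54 were above 0 but never reached it, and 13 were listed at 0 in every library (against 21.8% of the whole table). The last group included Kcnj8, the pore of the ATP-sensitive channel of mural cells, and the neuronal Kcnq3. Of the 19 expressed rows, 2 (Kcnj2 and Kcnk12) reached 16 in no EtOH library and therefore had to differ between the groups to be included, as did 0.572% of all expressed genes. No member was included through the EtOH libraries alone, against 0.202% of all expressed genes. Ranked by the third-highest library, the value the rule turns on, Kcnab1 (17.3) and Kcna3 (19.3) lay just inside the threshold and Kcnu1 (15.7) and Kcnf1 (15.6) just outside.

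The libraries summed to between 14952367 and 17314953 normalized counts, and their read depths are not stated. Cdkn1b, the mouse gene for p27Kip1, had 1427, 3074 and 1853 normalized counts in EtOH replicates 1, 2 and 3 and 1699, 1520 and 1630 in the TAM replicates, so it did not separate the groups, and the sources used here do not say if transgene reads count towards it. These values do not measure whether the cassette was switched on. For MSFs given TAM, the paper reports GFP from the cassette by flow cytometry, and growth arrest. All 9 fibroblast markers looked at were expressed, summing to between 1531000 and 1680000 normalized counts in the EtOH libraries and between 684800 and 1127000 in the TAM libraries. Of these 9, 5 had all TAM values below all EtOH values and 1 had them all above, beside 11.4% and 9.19% of all expressed genes. Mural and smooth muscle markers summed to 1186 to 1573 and 1958 to 9390, with TAM replicate 2 the highest. In that list 6 of 7 genes were expressed, and none of the 7 was at 0 throughout. Of the 6, 3 (Myh11, Cnn1 and Mcam) had all TAM values above all EtOH values, beside 9.19% of all expressed genes. Of the 5 skeletal muscle markers Ckm was at 0 throughout and Myod1 and Myog stayed under 1, while Acta1 reached 1404 in TAM replicate 2. Sums of the endothelial markers were 85.9 to 241 (EtOH) and 15.7 to 35.1 (TAM), and those of the immune markers 129 to 426 and 166 to 322. Neuron and Schwann cell markers summed to at most 48.9, keratinocyte markers to at most 29.4 and melanocyte markers to at most 255 in any library. In bulk RNA, fewer cells of a type and less RNA per cell cannot be told apart.

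Differences between TAM and EtOH libraries were tested with limma on log2(normalized counts + 1) over the 11879 expressed genes of the table, with Benjamini-Hochberg adjustment over all of them. The potassium channel genes were picked with Kcnj2 as their leading gene, so its values are given as a description without a test. Among the other 18 expressed members none passed an adjusted p of 0.05 in this limma fit, with or without the replicate number as a block. Over all genes tested 0.244% were called without the block (0.168% higher and 0.0758% lower) and 1.69% with it (1.06% higher and 0.631% lower). Without adjustment, at p under 0.05, limma put 5 of the 19 higher in the TAM libraries (26.3%) and 1 lower (5.3%; Kcna4). Over all genes tested the shares were 6.67% and 6.7%. The 5 were Kcnmb1, Kcnj15, Kcnip3 and 2 that had to be higher to be included, Kcnk12 and, by which the set was picked, Kcnj2. With the replicate block Kcnk2 joined the higher ones, which made 6 higher and 1 lower beside 8.65% and 8.32% of all genes tested. All 3 TAM values lay above all 3 EtOH values for 6 of the 19 (31.6%, beside 9.19% of all genes tested) and below them for 2 (10.5%, beside 11.4%), and groups that did not overlap in either direction made up 20.6% of all genes tested. The median log2 fold change of the 19 was 0.25, against -0.03 over all genes tested, and 12 of 19 were above 0 (63.2%, beside 46.2%). These are descriptions of a chosen set and no tests of it. Kcnj2 and Kcnk12, the 2 members that had to differ, are part of each count of higher members above. The shares of the 19 are therefore not like for like with those of all genes.

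**Figure D1:**
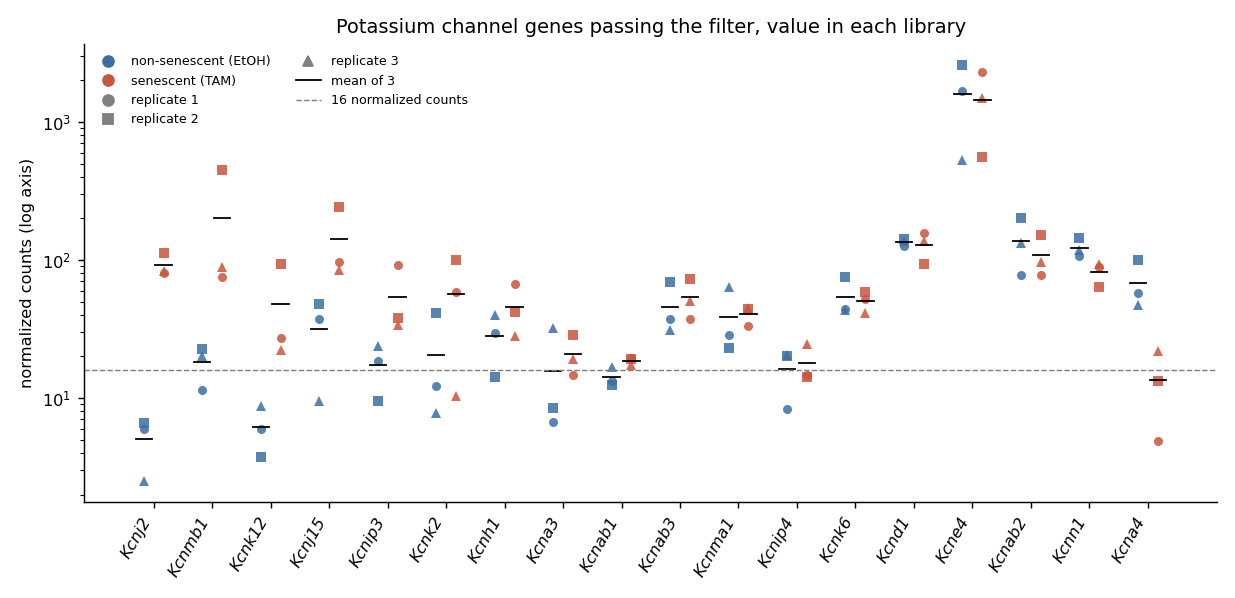
Normalized counts (log axis) of 18 expressed potassium channel genes in each EtOH (blue) and TAM (red) library, with marker shapes for replicates, black bars for means and a dashed line at 16. Kcnj2 shows the widest gap between the groups, Kcne4 has the highest values in both, and TAM replicate 2 (red square) stands far above the other TAM libraries for Kcnmb1, Kcnk12 and Kcnj15.

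Of the 15 inward rectifier rows, Kcnj2 and Kcnj15 were expressed, and both were higher in every TAM library. Kcnj2 (ENSMUSG00000041695) encodes Kir2.1, a strong inward rectifier that stabilizes the resting potential of muscle and other cells. It lies on chromosome 11 of mm9 from 110927478 to 110938135 on the plus strand, with its exons in 2 blocks. It had 5.94, 6.61 and 2.50 normalized counts in EtOH replicates 1, 2 and 3 and 79.9, 112 and 83.1 in TAM replicates 1, 2 and 3. All EtOH values were a few normalized counts, and every TAM value was more than 10 times any of them. The means were 5.02 ± 2.20 (SD, n = 3) and 91.8 ± 17.8 (SD, n = 3), an 18.3-fold ratio, and the fitted log2 fold change was 4.01 with a standard error of 0.45. Its log2 differences within same-numbered libraries were 3.54, 3.90 and 4.59. Leaving out EtOH replicate 1, 2 or 3 gave log2 fold changes of 4.15, 4.22 and 3.66, and without any one TAM library Kcnj2 no longer met the expression rule.

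The Kcnj2 promoter is shown because it belongs to the member with the widest difference. The sequence is that of RefSeq in the build GRCm38.p6, chr11:111065914-111066213 on the plus strand, from 250 bases before to 50 after the start, and capitals mark the motifs found.
Kcnj2 promoter: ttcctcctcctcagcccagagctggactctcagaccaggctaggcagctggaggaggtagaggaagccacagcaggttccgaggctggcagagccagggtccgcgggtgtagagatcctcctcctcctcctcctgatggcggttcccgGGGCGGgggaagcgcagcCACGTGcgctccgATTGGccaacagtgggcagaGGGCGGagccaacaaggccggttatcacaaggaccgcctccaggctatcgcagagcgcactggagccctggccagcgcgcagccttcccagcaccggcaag
Searched on both strands, it held the GC box GGGCGG (in 35.7% of all 32851 promoters of the same length), the E box CACGTG (7.2%) and the CCAAT box CCAAT, here as ATTGG (37.4%), with no overlap between them. It did not hold TATAAA (13.6%), TGAGTCA or TGACTCA (5.2% for either) or TGACGTCA (1.8%). These are matches of letters and say nothing of binding. Its GC content was 66.7%.

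Kcnj15 (ENSMUSG00000062609; chromosome 16 of mm9, 95479165 to 95521867) encodes Kir4.2, another inward rectifier. Its normalized counts were 37.3, 47.6 and 9.57 in the EtOH libraries and 96.9, 242 and 84.97 in the TAM libraries, in replicate order. The groups did not overlap, and TAM replicate 2 was the highest. Its log2 fold change was 2.23 ± 0.67 (SE, limma adjusted p = 0.240), and the blocked fit gave an SE of 0.39 with an adjusted p of 0.0754. Kcnj13, with 2.21, 4.77 and 3.51 against 6.86, 5.01 and 5.85 normalized counts, and Kcnj4, with 1.41, 2.84 and 0.80 against 9.32, 12.6 and 1.23, were among the 13 other inward rectifier rows and never reached 16. Kcnj3, another of these rows under 16, had a lower mean in the TAM libraries (0, 3.84 and 10.1 against 1.39, 0.82 and 0).

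Among 14 two-pore-domain rows, Kcnk12, Kcnk2 and Kcnk6 were expressed. Kcnk12 (ENSMUSG00000050138; chromosome 17, 88145177 to 88197334, minus strand) encodes THIK-2, a subunit known for low activity on its own. It had 6.01, 3.76 and 8.75 normalized counts in the EtOH libraries and 27.1, 93.8 and 22.5 in the TAM libraries. The groups did not overlap, and TAM replicate 2 was 3.79 times the mean of the other TAM libraries. The fitted log2 fold change was 2.53 ± 0.66 (SE, limma adjusted p = 0.194). Kcnk12 reached 16 in no EtOH library and so had to be higher in the TAM libraries to be included. Its separation and fit are therefore a description. Kcnk2, which encodes the mechanosensitive channel TREK-1, had 12.2, 41.0 and 7.81 against 58.8, 101 and 10.4 normalized counts. Its groups overlapped, although the TAM library was higher in each same-numbered pair, and its log2 fold change was 1.27 ± 0.93 (SE, limma adjusted p = 0.606). The blocked fit gave an SE of 0.46 and an adjusted p of 0.262. Kcnk6, which encodes TWIK-2, had means of 54.4 ± 18.2 and 50.7 ± 8.62 normalized counts (SD, n = 3 each), a log2 fold change of -0.06 that turned to 0.05 when libraries were scaled to equal sums. Kcnk5, the alkaline-activated channel TASK-2, reached 16 in EtOH replicate 2 alone (2.96, 21.2 and 3.47 against 0, 10.0 and 3.41). Kcnk3, the acid-sensitive channel TASK-1, stayed under 16 with 0.63, 0.92 and 0 against 11.1, 11.7 and 2.02.

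Of 41 voltage-gated rows 5 were expressed, and Kcna4 was the one whose values differed most. Kcna4 (ENSMUSG00000042604; chromosome 2, 107130796 to 107138659) encodes Kv1.4, which carries a fast-inactivating current. It had 58.0, 100 and 47.0 normalized counts in the EtOH libraries and 4.85, 13.4 and 22.0 in the TAM libraries. All TAM values lay below all EtOH values, and the mean was 5.10 times higher in the EtOH libraries. The fitted log2 difference was -2.40 ± 0.59 (SE, limma adjusted p = 0.182), with an adjusted p of 0.123 under the block. Kcnd1, an A-type channel gene, had 127, 141 and 137 against 157, 93.8 and 137 normalized counts, and its log2 fold change of -0.10 became 0.02 under scaling to equal sums. Kcna3, the lymphocyte channel gene, and Kcnh1, the ether-à-go-go channel gene, had overlapping groups, with log2 fold changes of 0.65 and 0.71 and limma adjusted p-values of 0.718 and 0.599.

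Several voltage-gated genes below the expression rule had 1 high library. Kcnf1, a silent subunit that modifies other channels, had 155.8 normalized counts in TAM replicate 2 but 15.6 and 12.9 in TAM replicates 1 and 3 and 10.0, 27.7 and 6.98 in the EtOH libraries. Kcng1, another modifier, had 31.0 in TAM replicate 2 and at most 7.75 elsewhere. Kcnh2, the ERG channel gene of the heart, had 25.1 in that library, and its 3 TAM values (7.42, 25.1 and 11.8) lay above its EtOH values (4.56, 5.70 and 1.66). Kcnh3 reached 21.5 in EtOH replicate 3 alone. Over all classes, 9 of the 61 rows above 0 that were not expressed had every TAM value above every EtOH value and 1 (Kcng3) the reverse, beside 10.1% and 2.86% of all such genes of the table.

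In the calcium- or sodium-activated class, Kcnma1 and Kcnn1 were expressed among 8 rows. Kcnma1, the pore of the large-conductance calcium-activated (BK) channel, had 28.8, 22.9 and 64.0 normalized counts in the EtOH libraries and 33.4, 44.4 and 44.8 in the TAM libraries, with 0.21 ± 0.45 as log2 fold change (SE, limma adjusted p = 0.881). Kcnn1, a small-conductance channel opened through calmodulin, had 107, 143 and 118 against 89.2, 63.7 and 94.3. Its TAM values all lay below its EtOH values by a small margin, with -0.58 ± 0.26 as log2 fold change (SE, limma adjusted p = 0.403). Kcnu1, the sperm channel gene, was put in this class by its symbol and not by what opens the channel. It reached 16 in 2 EtOH libraries only (19.8 and 19.6).

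Among the 15 auxiliary rows, Kcnmb1 (ENSMUSG00000020155; chromosome 11 of mm9, 33863013 to 33873641, plus strand) differed most. It encodes the β1 subunit, which raises the calcium sensitivity of the BK channel and is best known from smooth muscle. It had 11.4, 22.8 and 20.2 normalized counts in the EtOH libraries and 74.8, 446 and 88.5 in the TAM libraries. The groups did not overlap, and TAM replicate 2 was 5.46 times the mean of the other TAM libraries. Its log2 fold change was 2.97 ± 0.70 (SE, limma adjusted p = 0.163), and the blocked fit gave an SE of 0.48 with an adjusted p of 0.0626. Without TAM replicate 2 the log2 fold change was 2.16. The ratio of Kcnmb1 to its pore partner Kcnma1, in normalized counts, was 0.40, 1.00 and 0.32 in the EtOH libraries and 2.24, 10.0 and 1.98 in the TAM libraries. The smooth muscle genes Myh11 (227, 94.4 and 163 against 523, 1568 and 479) and Cnn1 (856, 523 and 551 against 1080, 6645 and 1749) were also higher in the TAM libraries and highest in TAM replicate 2. They were picked from a list of 7 mural and smooth muscle markers, not all of which separated the groups. Of the 6 expressed ones, 3 had every TAM value above every EtOH value (9.19% of all genes tested). A log2 fold change above 0 was seen for 5 of the 6 (46.2% of all genes tested). The part of Myh11 and Cnn1 in the Kcnmb1 result was not tested.

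Kcnip3 encodes a calcium-binding partner of Kv4 channels that is also known as calsenilin and DREAM. It had 18.5, 9.47 and 23.8 normalized counts in the EtOH libraries and 91.5, 37.7 and 33.7 in the TAM libraries. The groups did not overlap, and TAM replicate 1 was the highest. The fitted log2 fold change was 1.54 ± 0.54 (SE, limma adjusted p = 0.290). Kcnab1, a cytoplasmic β subunit of Kv1 channels, had 13.2, 12.4 and 16.8 against 19.4, 19.3 and 17.3, a narrow separation with 0.39 ± 0.41 as log2 fold change (SE, limma adjusted p = 0.728). Kcnmb4, the BK subunit of neurons, reached 16 in EtOH replicate 3 alone (2.93, 6.66 and 20.7 against 1.98, 5.01 and 9.42). Kcnab2, another Kv1 β subunit, had 78.0, 201 and 133 against 78.0, 152 and 96.4 normalized counts. Kcnab2, Kcnab3 and Kcnip4 had overlapping groups, with log2 fold changes of -0.29, 0.25 and 0.18 and limma adjusted p-values from 0.808 to 0.913.

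Kcne4, a single-span subunit known to inhibit several voltage-gated channels, had by far the highest level per length of the family. It stood at 614.7 normalized counts per kilobase of exon over the 6 libraries, and the other 18 expressed members lay between 1.91 (Kcnab1) and 26.4 (Kcnmb1). Its normalized counts were 1690, 2595 and 534 in the EtOH libraries and 2292, 553 and 1499 in the TAM libraries. The groups overlapped fully, and the log2 differences within same-numbered libraries were 0.44, -2.23 and 1.49. Its log2 fold change was -0.10 ± 0.70 (SE, limma adjusted p = 0.970), and it took either sign when single libraries were left out, from -0.76 to 0.48. Next after Kcnmb1 in normalized counts per kilobase came Kcnn1 (25.3), Kcnd1 (25.0) and Kcnab2 (22.1). In the EtOH libraries Kcnn1 stood at 30.3 ± 4.56, Kcnd1 at 25.6 ± 1.35 and Kcnab2 at 24.6 ± 11.1 normalized counts per kilobase (SD, n = 3), and these neighbours overlapped between libraries.

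**Figure D2:**
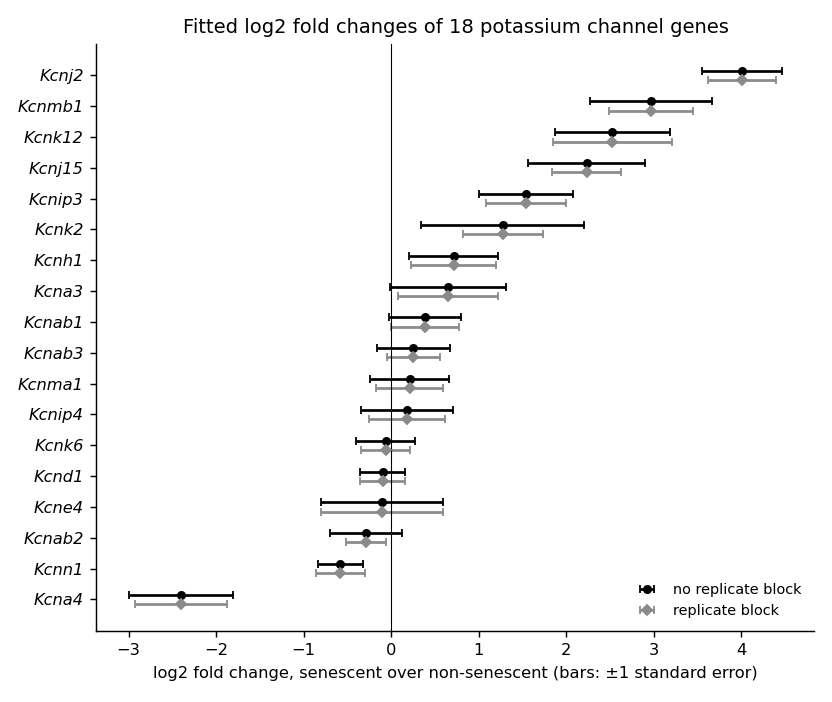
Fitted log2 fold changes (TAM over EtOH libraries) of 18 expressed potassium channel genes, with bars of ±1 standard error without (black) and with (grey) the replicate block. Values run from -2.40 for Kcna4 to 4.01 for Kcnj2, and 11 of 18 lie within 1 of 0.

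**Figure D3:**
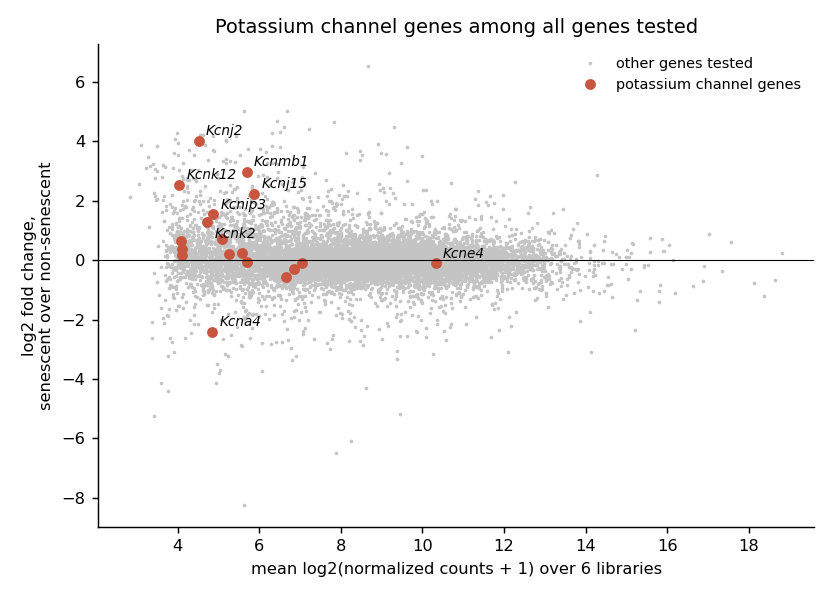
Log2 fold change against mean log2(normalized counts + 1) for the genes tested (grey) and 18 expressed potassium channel genes (red). Most members lie in the lower part of the expression range, with Kcnj2 (4.01) and Kcna4 (-2.40) at their edges, and Kcne4 lies far to their right.

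Levels of all 93 rows, expressed or not, were also summed per kilobase of exon within each class. With all members, the total was 873.3 ± 427.7 in the EtOH libraries and 936.2 ± 254.7 in the TAM libraries (SD, n = 3 each), and the auxiliary class, which holds Kcne4, took 77.2% and 72.3% of it on average. The voltage-gated share (7.6%, 6.3% and 20.2% against 6.2%, 15.7% and 8.9%) and the calcium- or sodium-activated share (4.4%, 3.4% and 10.8% against 2.9%, 4.3% and 4.5%) then overlapped between the groups. The inward rectifier share did not (1.2%, 1.3% and 2.0% against 3.5%, 9.6% and 4.1%). Since Kcne4 varied widely between libraries of both groups, the shares were also taken without it. The inward rectifier rows then made up 5.6%, 6.3% and 3.9% of the summed level in the EtOH libraries and 14.4%, 13.8% and 13.3% in the TAM libraries. This class includes Kcnj2, so the shift is a description. The calcium- or sodium-activated class made up 19.7% ± 2.4 (SD, n = 3) in the EtOH libraries and 12.2%, 6.2% and 14.4% in the TAM libraries. Its summed normalized counts per kilobase overlapped between the groups (38.0, 44.9 and 49.0 against 35.9, 31.0 and 38.9). The voltage-gated class was at 36.6%, 31.0% and 38.3% against 25.8%, 22.7% and 28.7%. The separation of the shares of both these classes was seen without Kcne4 and not with it. The two-pore-domain class (13.0%, 15.8% and 10.4% against 19.8%, 21.1% and 13.0%) overlapped between the groups, and per kilobase of coding sequence its mean share was lower in the TAM libraries (12.8%, against 13.4%). The auxiliary class (26.7% ± 3.4 against 31.5% ± 4.2, SD, n = 3 each) overlapped as well, and its mean was higher in the TAM libraries without Kcne4 and lower with it. In absolute terms the voltage-gated sum was 79.5 ± 13.7 and 88.7 ± 21.0 normalized counts per kilobase (SD, n = 3 each). That sum includes Kcnf1, which did not meet the expression rule and was high in TAM replicate 2 alone. Its means were 3.12 and 12.8 normalized counts per kilobase in the EtOH and TAM libraries. The total without Kcne4 was 226.7 ± 45.3 in the EtOH libraries and 353.3 ± 125 in the TAM libraries, with TAM replicate 2 the highest at 496.8.

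**Figure D4:**
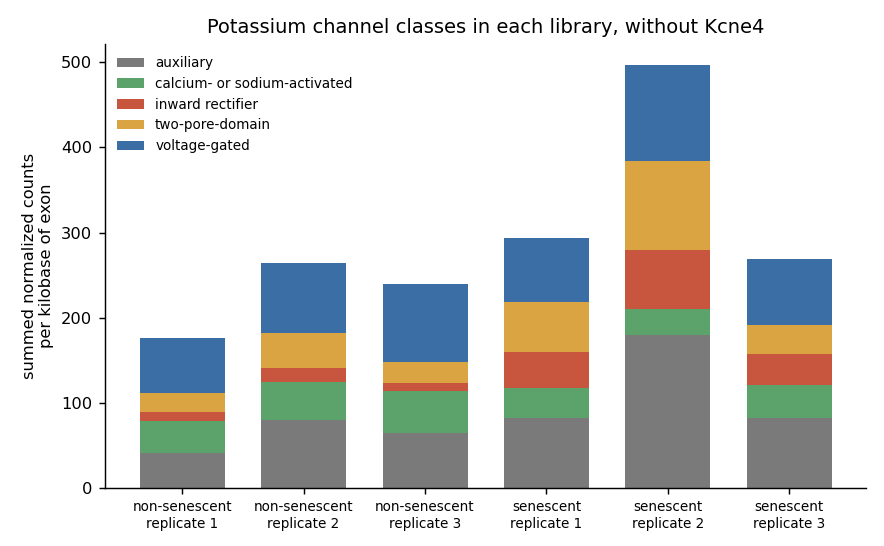
Summed normalized counts per kilobase of exon of the 5 potassium channel classes in each library, without Kcne4. The red inward rectifier segment is larger in each TAM library (35.9 to 68.8) than in each EtOH library (9.26 to 16.6), and TAM replicate 2 has the tallest bar.

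The genes that work beside potassium channels were looked at in lists compiled by hand. Of 24 sodium pump, cation-chloride cotransporter and related genes 13 were expressed, and at an unadjusted limma p under 0.05 there were 3 higher and 1 lower in the TAM libraries, beside 6.67% and 6.7% of all genes tested. With the replicate block 1 passed an adjusted p of 0.05, Atp1b1, a β subunit of the sodium-potassium pump that returns potassium to the cell. It had 162, 144 and 58.3 normalized counts in the EtOH libraries and 584, 1392 and 315 in the TAM libraries, with a log2 fold change of 2.51. The SE was 0.60 and the limma adjusted p 0.172 in the unblocked fit, and they were 0.31 and 0.0373 in the blocked fit. Smaller unblocked p-values belonged to Slc12a7, a potassium-chloride cotransporter (127, 91.5 and 130.1 against 355, 204 and 287, log2 fold change 1.25), and to the pump regulator Fxyd1, the lower one (230.1, 461 and 299 against 66.7, 23.4 and 109, log2 fold change -2.49). Their limma adjusted p-values were 0.147 and 0.152 unblocked and 0.0617 and 0.136 blocked.

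Of 61 calcium and other cation channel genes 35 were expressed. An unadjusted limma p under 0.05 was met by 8 that were higher and 1 that was lower in the TAM libraries, beside the same 6.67% and 6.7% of all genes. The one that passed an adjusted p of 0.05 with the block was Cacna1c, the L-type calcium channel pore, with 273, 180 and 168 against 1029, 1022 and 587 normalized counts. Its log2 fold change was 2.07, with an SE of 0.30 and a limma adjusted p of 0.0594 in the unblocked fit and 0.21 and 0.0274 in the blocked fit. The lower one was P2rx3, an ATP-gated cation channel gene, with 2235, 1101 and 2815 against 511, 315 and 216 normalized counts and a log2 fold change of -2.54. Its limma adjusted p was 0.0915 unblocked and 0.0565 blocked. The groups of Atp1b1, Slc12a7, Fxyd1, Cacna1c and P2rx3 did not overlap.

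None of the partner and chloride channel genes had an adjusted p under 0.05 in either limma fit. Of 20 channel partner genes 9 were expressed and 3 were higher at an unadjusted limma p under 0.05 (6.67% of all genes), namely the scaffolds Dlg1, Dlg3 and Cask, with log2 fold changes of 0.59, 0.50 and 0.65. Of 31 chloride channel genes 20 were expressed, with 3 higher and 2 lower (6.67% and 6.7% of all genes), and the smallest p-values were those of Clcn3 (log2 fold change -1.31), Ttyh1 (1.65) and Ano3 (2.71). Median log2 fold changes of these 4 lists were 0.27 for the partners, 0.23 for the pumps, 0.16 for the cation channels and 0.14 for the chloride channels, beside 0.25 for the potassium channel genes and -0.03 for all genes tested.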

How the data were processed

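TopHat alignment to mm9, htseq-count on RefSeq genes and TMM scaling in edgeR are the steps named by the authors, and versions are not given in the sources used here. They deposited 1 table of normalized counts, a signal that is not in whole numbers and whose scaling the table does not state. Low values lay within 0.1 steps of whole steps in 100% of cases in TAM replicate 2 and in 41.2% to 98.1% in the others, so no count test was run and no counting intervals were computed.

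Fits used limma 3.58.1 in R 4.3.3 with an intensity trend, on log2(value + 1), over genes with at least 16 in at least 3 libraries, and the script was tested on simulated data. Fold changes on this scale understate those of low genes. After subtracting group means, libraries sharing a number correlated (Pearson's r 0.24, 0.29 and 0.42 across genes, and from -0.31 to 0.04 between other libraries), so the replicate number was taken to pair libraries and used as a block. Subtracting group means ties these correlations to each other, so they are not separate evidence. The pairing comes from the label numbers and this check, which cannot establish it. Positions, exon lengths and coding sequences are from GENCODE vM1 (mm9). All 93 rows were found there on the same chromosome, and 64 had the same start and end. Exons of Kcnab2 and Kcnab3 overlap other genes by 2.24% and 5.13% of their bases, and strand use in counting is not given in the sources used here.

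All expressed members but 1 are named, and a few items are not reported here. Values in every library are given for Kcnj2, for members with an unadjusted p under 0.05 or groups that do not overlap, and for the 5 highest per kilobase. Of each other list, up to 3 genes are named, with the smallest p among those under an adjusted p of 0.05 in either fit or, where there are none, under 0.05 unadjusted. Slc12a7, Fxyd1 and P2rx3 were added after their values were seen. Members at 16 or more in 1 or 2 libraries are named, and other genes below the rule were chosen after their values were seen. The members and lists were chosen with earlier results of these data known. Alternatives were other scalings, filters and pseudocounts, the block, library weights and leaving out each library. Summaries used pandas 2.3.3 under Python 3.11.15, with plots from matplotlib 3.10.9.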

Additional observations from a re-analysis of the deposited data

How the results depend on the processing

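The count of potassium channel genes called was 1 under library size scaling, median-ratio scaling, no filter, pseudocounts of 0.1 and 10 and the replicate block. That 1 was Kcnj2, by which the set was picked, so the count describes it and is no test of it. The count was 2 with library weights, which added Kcnmb1 (log2 fold change 2.49), and 6 at an unadjusted p. It was 0 with at least 10 in every library, where Kcnj2 is not tested, and 0 with any one library left out. When the library left out is a TAM library, Kcnj2 is not tested either. The count over all genes was 29, and it was 201 with the replicate block, 736 with library weights, 17 without a filter, 18 with at least 10 in every library, 1588 at an unadjusted p and from 0 to 15 with 1 library left out. The median log2 fold change of the members was -0.064 and 3 members had groups that do not overlap with at least 10 in every library, where 11 members are tested, and 18 had such groups without a filter, where 80 are. Over 5 other lists, sodium channel genes included, 0 genes were called, against 2 with the block, 7 with library weights and 1 with library size scaling. Scaling to equal library sums moved the median of all genes from -0.03 to 0.08. It turned Kcnd1, Kcne4 and Kcnk6 to 0.015, 0.012 and 0.046, with 16 of 21 members above 0, and library weights turned Kcnd1 and Kcne4 to 0.044 and 0.604. With 1 library left out, Kcnab2, Kcnma1, Kcnip4, Kcnd1, Kcnk6 and Kcne4 took both signs, from -0.64 to 0.036, -0.085 to 0.64, -0.21 to 0.32, -0.25 to 0.12, -0.20 to 0.19 and -0.76 to 0.48. Over the settings that keep every library, 138 of 144 member values kept direction and call, and 87 of 99 did with a library left out. By coding length in place of exon length the inward rectifier share was 6.4% and 16.8%, beside 5.3% and 13.9%, and the two-pore-domain share turned from higher in the TAM libraries to lower (13.4% and 12.8%). The replicate block changed no call of a member, and its 2 genes of the other lists are Atp1b1 and Cacna1c. The cause of these changes was not tested. Read depth is not stated for these libraries, so the counting error of low values cannot be given.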
